A study of Mus musculus with 20 samples.

Results

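The Hox cluster genes are the genes whose symbol is Hox with a letter a to d and a number, and 39 of the 22593 genes named once in all 4 RNA tables met this rule. They comprised 11 genes of HoxA, 10 of HoxB, 9 of HoxC and 9 of HoxD. The cells were mouse embryonic fibroblasts (MEFs) of the C57BL/6 strain at passage 10 to 15, from Pml-null mice (KO) and wild-type mice (WT), and all were labelled as proliferating and untreated. PML is the protein around which PML nuclear bodies form, and the series asked how its loss relates to histone H3.3 deposition and heterochromatin. Chromatin immunoprecipitation (ChIP) was done for H3K27me3, H3K9me3, total H3, PML and tagged H3.3 (H3.3-Flag and H3.3-HA), and each genotype had 1 library of each. For H3.3 the cells had been transfected with a plasmid for the tagged histone, whereas RNA came from untransfected cells. RNA was sequenced from 3 numbered samples and 1 unnumbered sample per genotype. The numbered samples were deposited as 1 pooled table per genotype, so that there were 2 pairs of KO and WT tables and no spread between samples could be computed for any value below.

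Hox genes encode homeodomain transcription factors that give cells their position along the body axis and along the limb. The genes of a cluster lie in the order in which they are used, with low paralog numbers at the 3′ end for anterior structures and high numbers at the 5′ end for posterior and distal ones. Fibroblasts keep such a positional Hox pattern in culture, and genes that a cell does not use are covered by H3K27me3, the mark set by Polycomb complexes. H3K9me3 marks heterochromatin, and H3.3 is the histone variant placed at active genes and also, by other chaperones, in heterochromatin.

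On the mm10 build HoxA spanned chr6:52155367-52260880 on the minus strand, and HoxB spanned chr11:96194316-96368254 on the plus strand. HoxC spanned chr15:102921131-103036856 and HoxD chr2:74668225-74765142, both on the plus strand. Distances below are in kb from the 3′ end of a cluster, the side of paralog group 1 (of Hoxc4 in HoxC). The annotation placed 20 of the 39 members over another annotated gene, 10 of them over another member, such as Hoxa3 over Hoxa4, Hoxa5 and Hoxa6. Whether reads were counted by strand is not stated, so that RNA of such overlapping and antisense genes may not be fully separated.

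The tables differed in ways that touch every RNA comparison. FPKM (RNA fragments per kilobase, corrected for the library's mapped total) summed over the lines of single genes to 409141 in the numbered KO table against 948126 in the numbered WT table, and to 499817 against 514594 in the unnumbered KO and WT tables. Fibroblast markers reached 1 FPKM for 8 of 10 genes in the numbered KO table and 9 of 10 in the numbered WT table, and for 10 of 10 in both unnumbered tables, but Thy1 was at 0.100 FPKM in numbered KO and 0.141 FPKM in numbered WT cells. Of the fibroblast markers used, 5 of 9 were at least 2-fold lower and 1 higher in KO in the numbered pair, and 3 of 10 lower and 1 higher in the unnumbered pair. Of all genes used, 15.7% were lower and 6.5% higher in the numbered pair, and 3.83% and 1.74% in the unnumbered pair. Dcn had 8.71 FPKM in numbered KO and 53.1 FPKM in numbered WT cells, and 9.46 FPKM in unnumbered KO and 126.1 FPKM in unnumbered WT cells. On the log2(FPKM + 1) scale the difference of Lum, KO minus WT, was -2.25 in the numbered and -3.31 in the unnumbered pair. Col1a1 differed by -1.76 and Pdgfrb by -1.64 in the numbered pair, and by -0.49 and 0.09 in the unnumbered one. Pdgfra and S100a4 were past 2-fold in opposite directions, by 1.87 and -3.12 in the numbered and by -2.85 and 1.31 in the unnumbered pair. The part of this in the Hox differences was not tested. The female-specific RNA Xist was at 0.0517 FPKM in numbered KO and 19.5 FPKM in numbered WT cells, and the Y-linked gene Ddx3y at 7.67 FPKM in KO and 0.0384 FPKM in WT, so sex and genotype cannot be told apart in the numbered pair. In the unnumbered pair Xist was at 8.25 FPKM in KO and 5.89 FPKM in WT, and Ddx3y at 11.4 FPKM in KO and 21.7 FPKM in WT. Pml itself was read at 10.2 FPKM in numbered KO against 15.0 FPKM in numbered WT cells, and at 4.22 against 7.62 FPKM in unnumbered KO and WT cells. The labels do not give the deleted part, so these levels do not check the genotype.

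In the numbered tables the KO cells held RNA of Hox genes of groups 9 and 10 in 3 clusters that was nearly absent in the WT cells. They held at least 2-fold less RNA of 5 HoxA genes between Hoxa2 and Hoxa7. These 5 were 20.8% of the Hox genes used, beside 15.7% of all genes used that were lower. Members of groups 9 to 13 summed to 108.5 FPKM in numbered KO cells, 47.2% of all Hox FPKM there, against 1.92 FPKM or 1.22% in numbered WT cells. Groups 1 to 4 summed to 28.5 FPKM in KO and 62.2 FPKM in WT, and groups 5 to 8 to 92.8 FPKM in KO and 93.3 FPKM in WT. Of 4 muscle markers Des alone reached 1 FPKM, at 57.1 FPKM in numbered KO and 2.70 FPKM in numbered WT cells and at 5.07 and 21.7 FPKM in unnumbered KO and WT cells, while Myog was at 0 in every table, and the part of such a difference in the Hox levels was not tested. In the RNA of a whole culture, fewer cells of a type and less RNA per cell cannot be told apart.

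**Figure D1:**
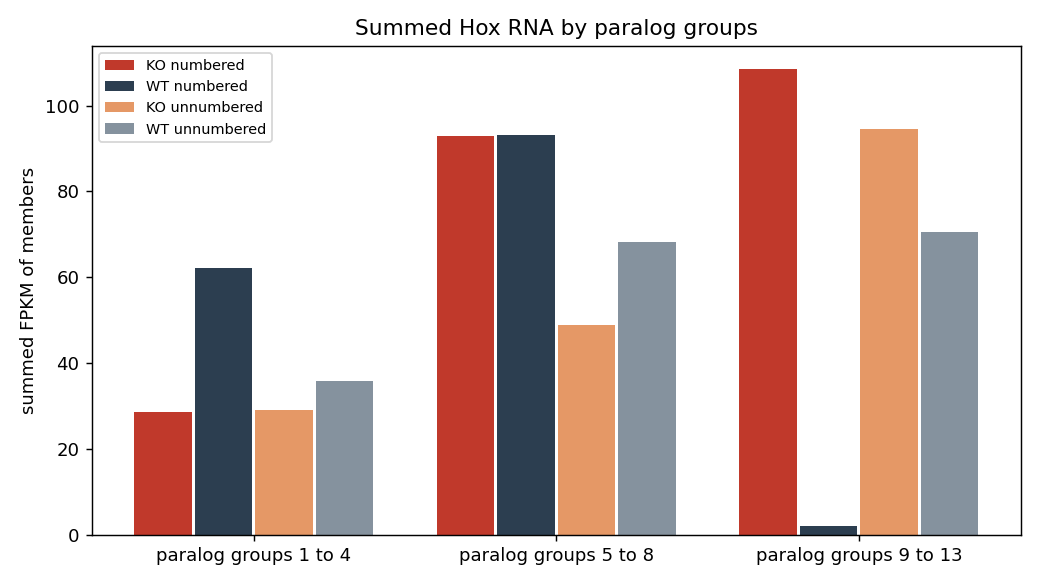
Summed FPKM (vertical axis) of the 39 Hox genes in 3 bands of paralog groups, with 1 bar per table: numbered KO, numbered WT, unnumbered KO and unnumbered WT. For groups 9 to 13 the bar of the numbered WT table stands at 1.92 FPKM, and the other bars at 70.6 to 108.5 FPKM.

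Differences are log2(FPKM + 1) in KO minus the same in WT, which understates the change of low genes, and genes were used when they reached 1 FPKM in either genotype. Of the 24 Hox genes used in the numbered tables, 7 (29.2%) were at least 2-fold higher in KO, where 6.5% of all 11055 genes used were. At least 2-fold lower were 5 (20.8%), where 15.7% of all genes were. The 7 were Hoxa9, Hoxa10, Hoxb6, Hoxb9, Hoxc8, Hoxc9 and Hoxc10, and the 5 were Hoxa2, Hoxa3, Hoxa4, Hoxa5 and Hoxa7. Hoxa9, Hoxa10, Hoxb9, Hoxc9 and Hoxc10 entered only through their KO value, since all were under 1 FPKM in numbered WT cells. Without any minimum, the same 7 and 5 of all 39 members were past 2-fold, against 3.18% and 7.69% of all 22593 genes. The median difference was 0.29 over the Hox genes used and 0.06 over all genes used. Because the summed FPKM of the 2 tables differed, rescaling each to the same sum moved the median of all genes to 1.16. The Hox counts were then 15 higher and 1 lower (Hoxa3), beside 57.8% of all genes used higher and 5.52% lower. Relative to that median the same 7 and 5 members were past 2-fold, beside 5.67% and 17.9% of all genes used.

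Hoxc10, a gene of the lumbar region and the hindlimb, was the highest Hox gene of the numbered KO table. It had 41.3 FPKM in numbered KO cells against 0.323 FPKM in numbered WT cells, a difference of 5.00. Its 3′ neighbour Hoxc9, which in the spinal cord sets thoracic motor neuron identity, had 13.2 FPKM in KO against 0.0737 FPKM in WT, a difference of 3.72. Both went with Hoxc8, a gene of the lower neck and upper thorax, at 14.8 FPKM in KO and 3.52 FPKM in WT, a difference of 1.80. The step between expressed and near-silent genes in HoxC therefore lay 5′ of Hoxc10 in the KO table, where Hoxc11 had 0.971 FPKM, and 5′ of Hoxc8 in the WT table, where Hoxc11, Hoxc12 and Hoxc13 were listed at 0. Hoxc12 was at 0.131 FPKM and Hoxc13, a gene of hair and nails, at 0.224 FPKM in KO. Nearer the 3′ end Hoxc6 had 24.4 FPKM in KO and 17.0 FPKM in WT, Hoxc4 had 5.92 FPKM in KO and 3.28 FPKM in WT, and Hoxc5 had 3.70 FPKM in KO and 3.60 FPKM in WT.

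In HoxB the largest difference was in group 9. Hoxb9, which acts with the other group 9 genes in the thoracic skeleton, had 26.7 FPKM in numbered KO cells and 0.574 FPKM in numbered WT cells, a difference of 4.14. Hoxb6 had 9.24 FPKM in KO and 3.66 FPKM in WT, a difference of 1.14. Hoxb8 lay just under the 2-fold line at 7.94 FPKM in KO and 3.47 FPKM in WT, and Hoxb5 had 3.20 FPKM in KO and 1.20 FPKM in WT, a difference of 0.93. Their plain ratios of KO over WT were 2.29 and 2.66. With 0.1 in place of 1 added to each FPKM both passed 2-fold. In that setting 9 Hox genes in place of 7 were higher, beside 9.82% of all genes used. The other HoxB genes with RNA differed by less. Hoxb7 had 13.0 FPKM in KO and 11.9 FPKM in WT, and Hoxb2, a gene of the hindbrain, had 7.24 FPKM in KO and 9.76 FPKM in WT. Hoxb3 had 4.03 FPKM in KO and 3.11 FPKM in WT, and Hoxb4, which promotes blood stem cell growth, had 2.64 FPKM in KO and 4.36 FPKM in WT. The outermost genes of the cluster, Hoxb1 of the fourth rhombomere and Hoxb13 of the prostate and tail bud, were at or below 0.0419 FPKM in both numbered tables.

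HoxA held differences in both directions. Hoxa10, known for its role in the uterus and the upper limb skeleton, had 20.2 FPKM in numbered KO cells and 0.140 FPKM in numbered WT cells, a difference of 4.22. Hoxa9, a regulator of blood progenitors, had 4.68 FPKM in KO and 0.125 FPKM in WT, a difference of 2.34. On the 3′ side the order was reversed, with the WT cells higher. Hoxa3, needed for the thymus and parathyroid, had 3.49 FPKM in KO and 26.7 FPKM in WT, a difference of -2.62. Hoxa5, needed for the airways and lung, had 7.25 FPKM in KO and 31.0 FPKM in WT, a difference of -1.96 and the highest Hox value of the numbered WT table. These genes lie beside Hoxa4, at 1.90 FPKM in KO and 7.43 FPKM in WT with a difference of -1.54, and Hoxa7, at 2.81 FPKM in KO and 11.6 FPKM in WT with a difference of -1.73. Hoxa2, which patterns the second pharyngeal arch, had 1.78 FPKM in KO and 5.81 FPKM in WT, a difference of -1.29. Hoxa6 within this stretch was an exception, at 2.67 FPKM in KO and 1.98 FPKM in WT. Hoxa11 and Hoxa13, of the forearm and the hand and foot, were at 0.0240 and 0.0349 FPKM in KO and listed at 0 in WT.

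HoxD held little RNA in the numbered tables, 5.20 FPKM in KO and 5.34 FPKM in WT over its 9 genes. Most of it was Hoxd8, at 3.89 FPKM in KO and 4.35 FPKM in WT. Hoxd9 had 0.938 FPKM in KO and 0.682 FPKM in WT, and Hoxd4 had 0.222 FPKM in KO and 0.290 FPKM in WT. Hoxd10 had 0.103 FPKM in KO and was listed at 0 in WT, and the digit genes Hoxd12 and Hoxd13 were listed at 0 in both genotypes. Hoxd1, Hoxd3 and Hoxd11 did not exceed 0.0431 FPKM in KO or 0.0224 FPKM in WT. The posterior genes of HoxD thus did not share the pattern of Hoxa10, Hoxb9 and Hoxc10.

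**Figure D2:**
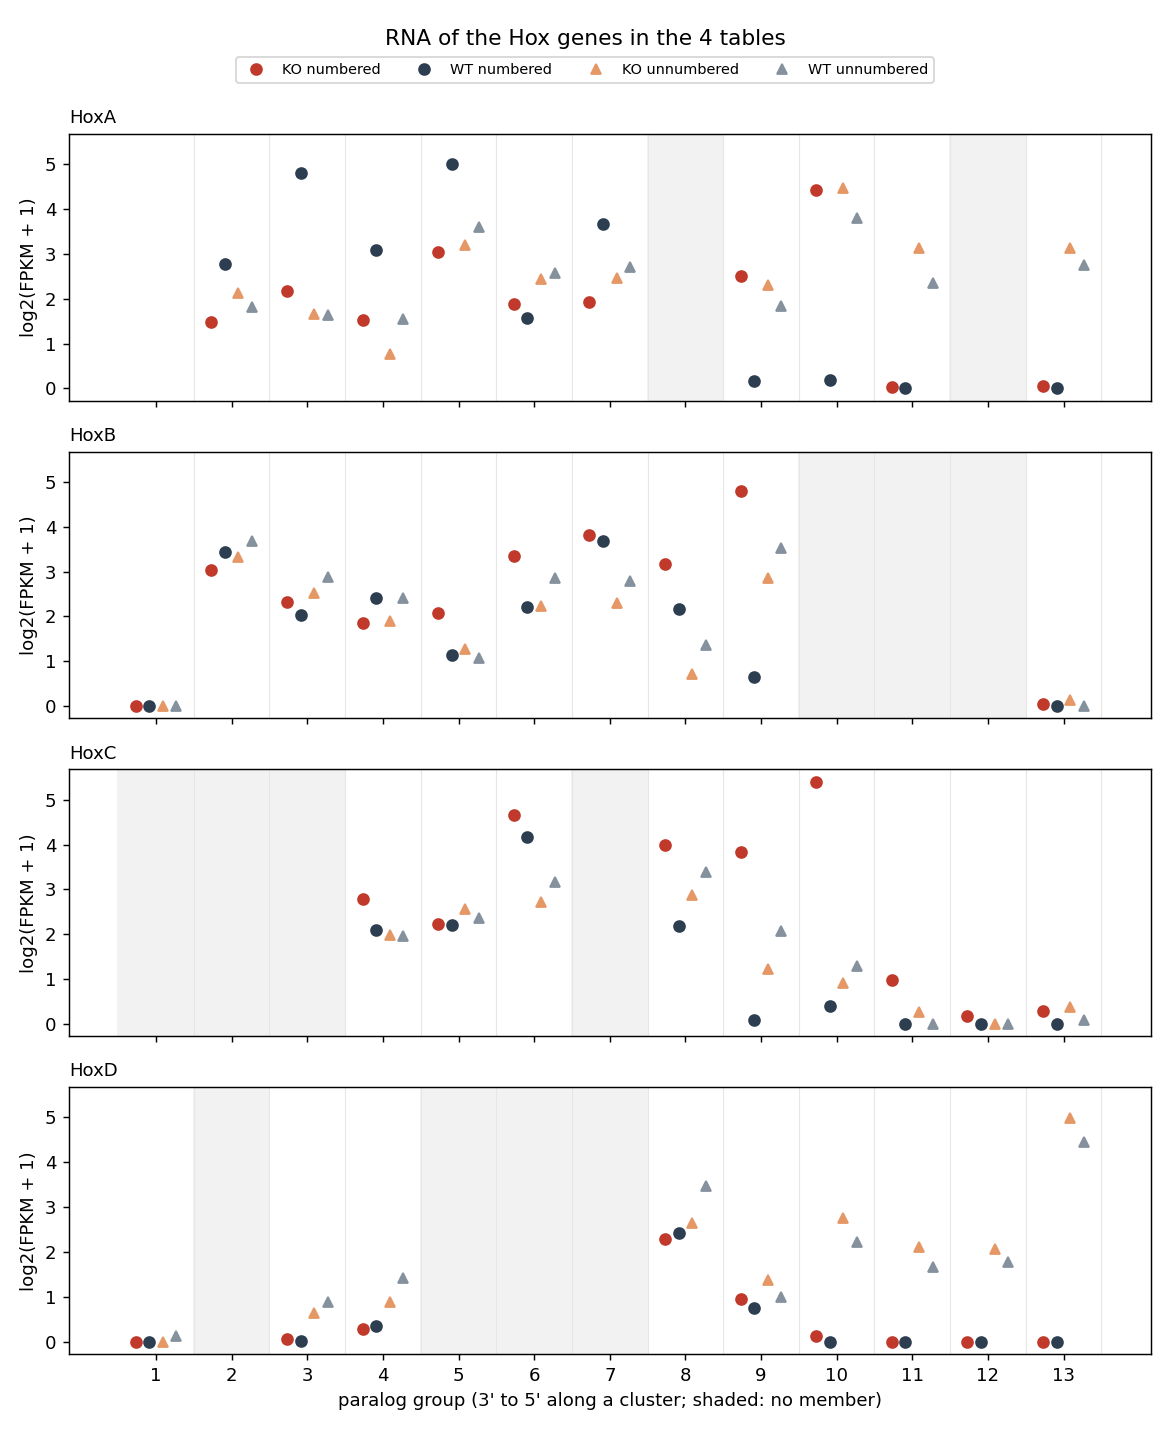
Level of Hox genes as log2(FPKM + 1) by paralog group, with 1 panel per cluster and 1 point per table, KO left of WT within a pair and shaded bands where a cluster has no gene. Numbered KO and WT points part at group 9 of HoxA, HoxB and HoxC and at group 10 of HoxA and HoxC, and unnumbered points of HoxD stand at groups 10 to 13 where both numbered points are near 0.

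The unnumbered tables gave another Hox pattern, shared by the 2 genotypes. Hoxd13, which with Hoxa13 shapes the hand and foot, was the highest Hox gene in both, at 31.0 FPKM in KO and 20.9 FPKM in WT, and Hoxa10 was the next, at 21.1 FPKM in KO and 12.8 FPKM in WT. Hoxb2 followed in both, at 9.01 FPKM in KO and 11.8 FPKM in WT. Hoxa13 had 7.69 FPKM in KO and 5.74 FPKM in WT, Hoxa11 had 7.79 FPKM in KO and 4.08 FPKM in WT, and Hoxd10 had 5.82 FPKM in KO and 3.71 FPKM in WT. Hoxd11 and Hoxd12 had 3.37 and 3.19 FPKM in KO against 2.16 and 2.44 FPKM in WT. All of these posterior HoxA and HoxD genes except Hoxa10 were at or below 0.103 FPKM in both numbered tables. Groups 9 to 13 held 54.8% of Hox FPKM in unnumbered KO cells and 40.5% in unnumbered WT cells.

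Of the 32 Hox genes used in the unnumbered pair, 0 were at least 2-fold higher in KO, where 1.74% of all 11687 genes used were, and 0 were at least 2-fold lower, where 3.83% were. This 0 holds with 1 added to each FPKM: with 0.1 added, 3 were lower, beside 6.06% of all genes used. The plain ratios of WT over KO were 2.75 for Hoxa4, 2.40 for Hoxb8, 2.34 for Hoxc9 and 2.02 for Hoxd4. The differences that came nearest were those of Hoxc9, at 1.36 FPKM in KO and 3.19 FPKM in WT with a difference of -0.83, and Hoxd8, at 5.30 FPKM in KO and 10.2 FPKM in WT with a difference of -0.82. Hoxa11 had the largest difference upward, 0.79. By sign, all 9 genes of groups 9 to 13 in HoxA and HoxD were higher in KO, by 0.28 to 0.79, and the 3 used in HoxB and HoxC (Hoxb9, Hoxc9 and Hoxc10) were lower, by -0.83 to -0.37, while 51.5% of all genes used were higher. In HoxB 1 of 8 genes used was higher in KO, with a median difference of -0.49, and in HoxC 2 of 6, with a median of -0.41. With 1 sample per genotype these sizes cannot be set against a spread between cultures. Macrophage markers summed to 3.82 FPKM in unnumbered KO and 87.1 FPKM in unnumbered WT cells, with Tyrobp at 0 in KO and 18.1 FPKM in WT, and their part in the differences of this pair was not tested.

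Genes named in the numbered comparison stood as follows in the unnumbered one. Hoxa3 had 2.18 FPKM in KO and 2.10 FPKM in WT, and Hoxa5 had 8.09 FPKM in KO and 11.1 FPKM in WT. Hoxa9 had 3.90 FPKM in KO and 2.55 FPKM in WT, and Hoxc10 had 0.887 FPKM in KO and 1.44 FPKM in WT. Hoxb9 had 6.28 FPKM in KO and 10.5 FPKM in WT, and Hoxc8 had 6.31 FPKM in KO and 9.49 FPKM in WT. Hoxa4 had 0.692 FPKM in KO and 1.90 FPKM in WT, Hoxa2 had 3.38 FPKM in KO and 2.53 FPKM in WT, Hoxa7 had 4.53 FPKM in KO and 5.55 FPKM in WT, and Hoxb6 had 3.71 FPKM in KO and 6.28 FPKM in WT. Of the 12 genes past 2-fold in the numbered pair, Hoxa9 and Hoxa10 were higher in KO in both pairs, and Hoxa4, Hoxa5 and Hoxa7 were lower in KO in both. Hoxb6, Hoxb9, Hoxc8, Hoxc9 and Hoxc10 were higher in KO in the numbered pair and lower in the unnumbered one, and Hoxa2 and Hoxa3 were the reverse, Hoxa3 by a difference of 0.04 in the unnumbered pair.

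Counted by presence at 1 FPKM, 24 Hox genes had RNA in numbered KO cells and 19 in numbered WT cells, and all 19 were among the 24. In unnumbered cells 28 had RNA in KO and 32 in WT, and all 28 were among the 32. Hoxa4, Hoxb8, Hoxc10 and Hoxd4 reached 1 FPKM in WT alone. How many of all genes reached 1 FPKM in 1 genotype alone was not counted, so these numbers have no background beside them. Genes that reached 1 FPKM in every table included Hoxa2, Hoxa3, Hoxa5, Hoxa6, Hoxa7, Hoxb2 to Hoxb7, Hoxc4, Hoxc5, Hoxc6, Hoxc8 and Hoxd8. The 7 genes below 1 FPKM in every table were Hoxb1, Hoxb13, Hoxc11, Hoxc12, Hoxc13, Hoxd1 and Hoxd3. Hoxb1, Hoxb13, Hoxc13 and Hoxd1 are each the outermost gene of a cluster.

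**Figure D3:**
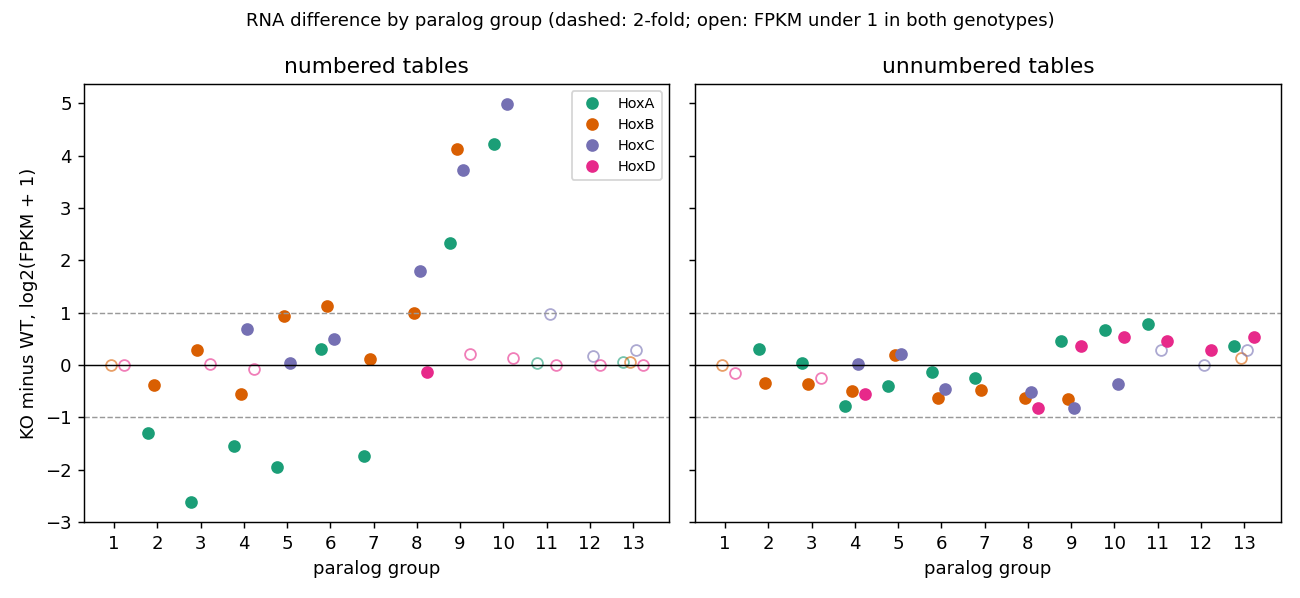
Difference in log2(FPKM + 1), KO minus WT, by paralog group for the numbered tables (left) and the unnumbered tables (right), coloured by cluster, with dashed lines at 2-fold and open points for genes under 1 FPKM in both genotypes. In the numbered tables the points spread between -2.62 (Hoxa3) and 5.00 (Hoxc10), and in the unnumbered tables every point lies between the dashed lines.

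Promoter sequences from RefSeq (GRCm38.p6, the assembly of mm10, 250 bases before to 50 after an annotated start) were matched for 22 of the 39 members. The 5 printed here belong to genes on which the RNA results turn: Hoxa10 and Hoxa9, with RNA in numbered KO and hardly any in numbered WT cells, Hoxa5 and Hoxa3, lower in numbered KO cells, and Hoxd13, read in the unnumbered tables alone. CpG dinucleotides are in capitals. They were taken from chr6:52240805-52241104 (Hoxa10), chr6:52227321-52227620 (Hoxa9), chr6:52204538-52204837 (Hoxa5) and chr6:52213018-52213317 (Hoxa3), all read on the minus strand, and from chr2:74667975-74668274 (Hoxd13) on the plus strand.
Hoxa10: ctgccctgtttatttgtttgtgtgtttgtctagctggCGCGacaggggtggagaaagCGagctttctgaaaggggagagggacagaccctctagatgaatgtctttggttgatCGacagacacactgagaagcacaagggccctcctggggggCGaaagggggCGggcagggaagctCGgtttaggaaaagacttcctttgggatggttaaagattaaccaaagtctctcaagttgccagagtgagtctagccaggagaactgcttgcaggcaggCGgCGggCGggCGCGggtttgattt
Hoxa9: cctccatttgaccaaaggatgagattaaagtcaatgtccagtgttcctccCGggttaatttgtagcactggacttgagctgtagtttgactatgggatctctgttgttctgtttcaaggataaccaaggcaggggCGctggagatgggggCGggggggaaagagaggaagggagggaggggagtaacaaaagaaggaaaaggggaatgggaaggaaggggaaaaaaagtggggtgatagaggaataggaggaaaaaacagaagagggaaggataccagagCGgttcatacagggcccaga
Hoxa5: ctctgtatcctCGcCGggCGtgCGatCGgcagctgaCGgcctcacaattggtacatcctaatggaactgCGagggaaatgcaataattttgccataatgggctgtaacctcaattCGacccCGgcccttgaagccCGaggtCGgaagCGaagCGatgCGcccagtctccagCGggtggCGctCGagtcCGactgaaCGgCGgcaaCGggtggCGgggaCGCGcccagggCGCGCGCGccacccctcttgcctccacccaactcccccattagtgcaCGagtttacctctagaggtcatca
Hoxa3: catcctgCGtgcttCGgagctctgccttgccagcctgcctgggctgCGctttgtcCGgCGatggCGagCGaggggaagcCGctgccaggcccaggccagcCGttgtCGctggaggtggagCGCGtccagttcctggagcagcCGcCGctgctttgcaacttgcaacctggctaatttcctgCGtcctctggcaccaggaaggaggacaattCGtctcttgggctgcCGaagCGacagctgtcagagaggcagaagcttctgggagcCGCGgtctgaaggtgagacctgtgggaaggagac
Hoxd13: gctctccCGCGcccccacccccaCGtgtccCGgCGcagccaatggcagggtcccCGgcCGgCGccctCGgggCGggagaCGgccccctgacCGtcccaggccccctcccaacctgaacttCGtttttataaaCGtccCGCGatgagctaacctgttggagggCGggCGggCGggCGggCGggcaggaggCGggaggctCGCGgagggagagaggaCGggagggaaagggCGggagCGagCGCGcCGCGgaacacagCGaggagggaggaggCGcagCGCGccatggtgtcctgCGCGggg
The Hoxd13 stretch held 37 CpG dinucleotides, that of Hoxa5 29, that of Hoxa3 20, that of Hoxa10 12 and that of Hoxa9 4. The Hoxa10 and Hoxa9 stretches therefore had fewer CpG than those of Hoxa5 and Hoxa3. Hoxa10 has a further annotated start inside the gene, at base 52234939, and the stretch printed is that of the start farthest 5′. Over the 22 matched members the median was 13.5 CpG, against 7 over all 27025 promoters of the same length, and the median GC content was 56.8% against 52.7%. Of motifs searched on both strands, CCAAT was in 63.6% of the 22 against 37.9% of all promoters and AGGTCA in 31.8% against 16.0%. GGGCGG was in 40.9% against 35.9%, TATAAA in 13.6% against 14.2% and TGATTNAT in 4.55% against 3.36%. A match describes letters in this window and not a bound factor.

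Genes that work with or near the Hox genes were taken as lists. None of the Polycomb and Trithorax genes, which keep Hox genes off or on, was past 2-fold in either pair, out of 20 used in each, beside 6.5% of all genes higher and 15.7% lower in the numbered pair and 1.74% and 3.83% in the unnumbered pair. H3K27 methyltransferase Ezh2 had 38.3 FPKM in numbered KO and 31.2 FPKM in numbered WT cells, and 7.60 FPKM in unnumbered KO and 9.82 FPKM in unnumbered WT cells. Of the Meis, Pbx and Pknox genes, whose proteins bind DNA with Hox proteins, 0 of 9 used were higher and 1 was lower in the numbered pair, beside 6.5% and 15.7% of all genes, namely Meis3 at 5.27 FPKM in KO and 11.8 FPKM in WT. In the unnumbered pair 0 of 8 were past 2-fold, beside 1.74% higher and 3.83% lower. Of genes in or beside the clusters, 16 of 23 names were matched in the tables, and 0 were past 2-fold among the 9 used in the numbered and the 10 used in the unnumbered pair. Beside these stand 6.5% of all genes higher and 15.7% lower in the numbered pair, and 1.74% and 3.83% in the unnumbered pair. The antisense RNA over Hoxa11, named Hoxa11as in the tables, was listed at 0 in both numbered tables and stood at 12.2 FPKM in unnumbered KO and 6.97 FPKM in unnumbered WT cells.

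Inducers of Hox genes and other position factors differed most in the numbered pair, in which 4 of 11 used were higher in KO by 2-fold or more and 3 were lower by as much, beside 6.5% and 15.7% of all genes. Pitx1, which marks the hindlimb, had 7.33 FPKM in numbered KO and 0.0553 FPKM in numbered WT cells. Tbx5, which marks the forelimb and the heart, had 0.00223 FPKM in KO and 1.71 FPKM in WT. Tbx4, another gene of the hindlimb, was listed at 0 in both numbered tables and was read in both unnumbered ones, with a difference of -0.67. Lmx1b, of the dorsal limb, had 3.27 FPKM in KO and 0.0592 FPKM in WT, and En1, of the ventral limb, had 1.31 FPKM in KO and 11.3 FPKM in WT. Cyp26b1, which breaks down retinoic acid, had 1.09 FPKM in KO and 41.8 FPKM in WT. Shox2 had 4.99 FPKM in KO and 0.635 FPKM in WT, and Tbx15 had 29.2 FPKM in KO and 8.75 FPKM in WT. In the unnumbered pair Pitx1 had 3.33 FPKM in KO and 2.82 FPKM in WT, and Tbx5 had 3.47 FPKM in KO and 2.89 FPKM in WT, so that both limb genes were read in both genotypes. Of 15 used there, 0 were higher in KO by 2-fold or more and 2 were lower by as much, beside 1.74% and 3.83% of all genes, namely Shox2 at 3.97 FPKM in KO and 16.0 FPKM in WT, and Meox1 at 0.330 FPKM in KO and 16.0 FPKM in WT. The part of these factors in the Hox differences was not tested.

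H3K27me3 regions covered 81.2% of the summed length of the 4 clusters in KO and 82.2% in WT. They covered all of HoxC and HoxD in both genotypes, 70.7% of HoxB in KO and 83.9% in WT, and 60.5% of HoxA in KO and 43.5% in WT. The regions carried the authors' signal value, whose scaling is not stated, so ranks are given within a chromosome. By signal the longest H3K27me3 region of a cluster ranked 1 of 1169 in KO and 5 of 1390 in WT on the chromosome of HoxD, 1 of 360 in KO and 1 of 623 in WT for HoxC, 1 of 543 in KO and 3 of 765 in WT for HoxB, and 3 of 920 in KO and 3 of 1169 in WT for HoxA. A gene start was called under a mark when at least 0.5 of the window of 1 kb on both sides was covered. For H3K27me3 this held for 34 of the 39 Hox starts in KO, beside 33.4% of 17274 protein-coding starts, and for 32 in WT, beside 34.9%. Hoxa2, Hoxa5 and Hoxb2 were among the genes with starts outside H3K27me3 in both genotypes.

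HoxA and HoxB differed in where the marked part began. In HoxA the long H3K27me3 region began 50.6 kb from the 3′ end in KO and 59.6 kb in WT, 9 kb nearer to the 3′ end in KO, and the starts of Hoxa6 and Hoxa3 lay in between. A second, short region in KO reached from 32.6 to 41.6 kb over the start of Hoxa4, with a signal of 0.667 against 66.2 in the long one. In HoxB the long region began 58.3 kb from the 3′ end in KO and 37.3 kb in WT, 21 kb farther from the 3′ end in KO, with the start of Hoxb4 in between. The border thus lay on opposite sides of the WT border in the 2 clusters. A separate H3K27me3 region over Hoxb1 ended at 7.25 kb in KO and 9.25 kb in WT. Hoxa3, Hoxa4 and Hoxa6 were therefore the starts under H3K27me3 in KO alone, and Hoxb4 in WT alone. How many of all protein-coding starts changed in this way was not counted, and the whole list held 12328 regions in KO and 17668 in WT. Hoxa3 and Hoxa4 had 3.49 and 1.90 FPKM in numbered KO cells against 26.7 and 7.43 FPKM in numbered WT cells. In the same pair Hoxa6 had 2.67 FPKM in KO and 1.98 FPKM in WT, and Hoxb4 had 2.64 FPKM in KO and 4.36 FPKM in WT. Unnumbered KO and WT cells had 2.18 and 2.10 FPKM of Hoxa3 and 0.692 and 1.90 FPKM of Hoxa4. They had 4.42 and 4.91 FPKM of Hoxa6, and 2.75 and 4.31 FPKM of Hoxb4. Which of the RNA cultures the ChIP cells match is not given by the labels.

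H3.3-Flag lay mainly over the 3′ parts of HoxA and HoxB. In HoxB its longest region crossed the border of the long H3K27me3 region in both genotypes, and in HoxA it did not. It covered 44.2% of HoxA in KO and 53.6% in WT, 36.2% of HoxB in KO and 28.2% in WT, 0% of HoxC in both genotypes, and 0% of HoxD in KO and 10.1% in WT. Of its HoxA cover 23.6% in KO and 26.3% in WT lay inside H3K27me3, and of its HoxB cover 44.4% in KO and 51.0% in WT did. The HoxA part inside H3K27me3 was, in WT, in the region over Hoxa13. In KO it was at the short H3K27me3 region over Hoxa4 and at the Hoxa3 start. Its longest HoxA region ended at 44.6 kb in KO and 35.6 kb in WT, before the long H3K27me3 region began (50.6 and 59.6 kb). Separate short regions over the Hoxa3 start ended at 58.6 kb in both. The longest region had a signal of 6.22 in KO, rank 1079 of 1170 on its chromosome, and of 39.2 in WT, rank 652 of 1559. In HoxB the longest region ended at 84.3 kb in KO and 62.3 kb in WT, 22 kb farther from the 3′ end in KO, with the starts of Hoxb5, Hoxb6 and Hoxb7 in between. The KO region there had a signal of 7.34, rank 1061 of 1209, and the WT region 36.2, rank 789 of 1639. Between 34.3 and 44.3 kb KO had no H3.3-Flag region, where the WT region was unbroken. In HoxB both the 3′ border of H3K27me3 and the 5′ border of H3.3-Flag thus lay nearer to the 5′ end in KO than in WT, by 21 and 22 kb. The 2 marks overlapped over 16.1% of HoxB in KO and 14.4% in WT. Of the 10 Hox starts under H3.3-Flag in KO, 60.0% were also under H3K27me3, beside 7.91% of all protein-coding starts under H3.3-Flag, and of the 9 in WT 55.6% were, beside 10.2%. Among all 39 Hox starts 34 in KO and 32 in WT were under H3K27me3, a larger share than among those under H3.3-Flag.

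H3.3-Flag starts numbered 10 of 39 in KO, beside a background of 33.3%, and 9 in WT, beside 39.6%. Hoxa4, Hoxb5, Hoxb6 and Hoxb7 were under H3.3-Flag in KO alone. How many of all protein-coding starts were under it in 1 genotype alone was not counted. The whole H3.3-Flag list held 20641 regions in KO and 28213 in WT. In the numbered pair Hoxb5 and Hoxb6 had more RNA in KO cells and Hoxa4 less, as given above, while Hoxb7 had 13.0 FPKM in KO and 11.9 FPKM in WT. In the unnumbered pair Hoxb5 had 1.41 FPKM in KO and 1.11 FPKM in WT, Hoxb6 had 3.71 FPKM in KO and 6.28 FPKM in WT, and Hoxb7 had 3.94 FPKM in KO and 5.91 FPKM in WT. In WT alone the starts of Hoxa13, Hoxd8 and Hoxd13 were under H3.3-Flag. The regions over Hoxa13 and Hoxd13 were 17 and 15 kb long and faint, with signals of 13.5 and 16.2, where the median signal of the WT list was 35.3 on the chromosome of HoxA and 35.1 on that of HoxD. The KO regions over Hoxa4 and over Hoxb5, Hoxb6 and Hoxb7 were faint too, with signals of 6.22 and 7.34. The KO medians were 14.7 on the chromosome of HoxA and 15.4 on that of HoxB. Hoxa13 and Hoxd13 were listed at 0 in the numbered WT table and had 5.74 and 20.9 FPKM in the unnumbered one, and the labels do not say which RNA culture the ChIP cells match.

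**Figure D4:**
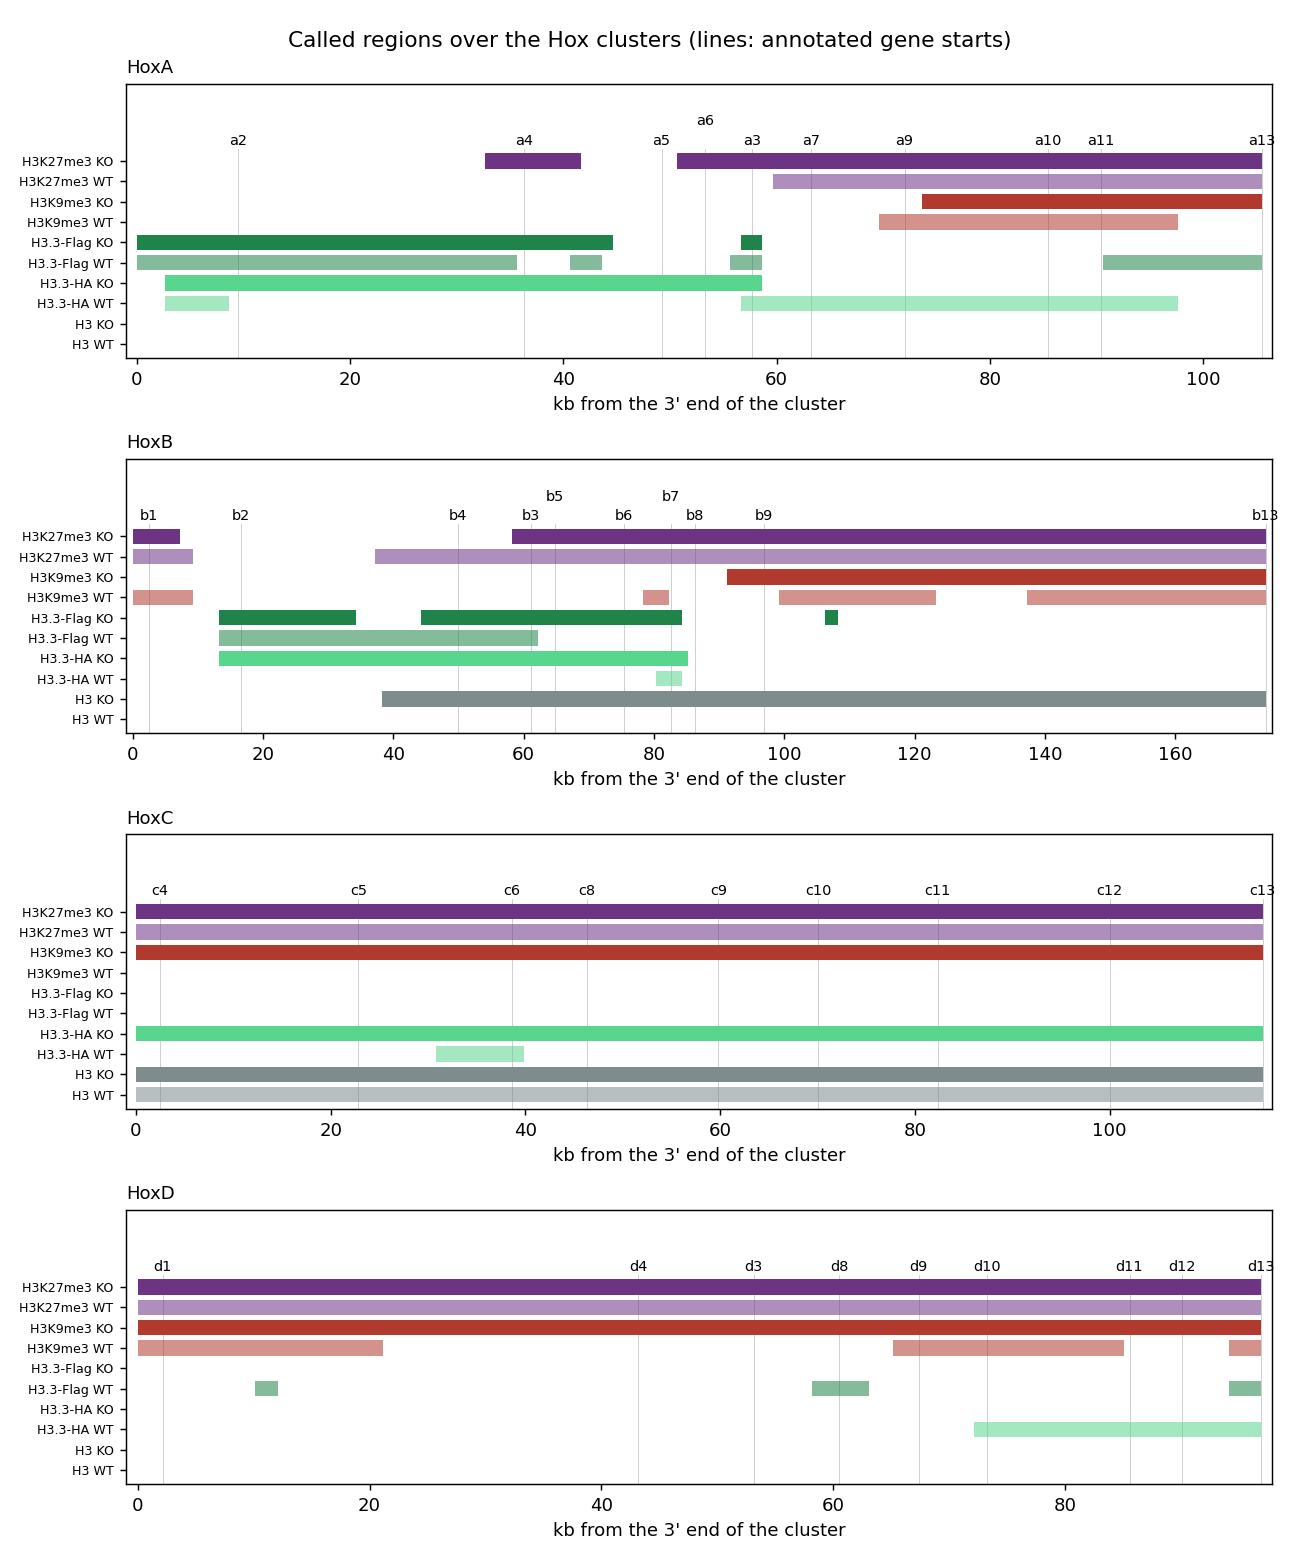
Called regions of H3K27me3, H3K9me3, H3.3-Flag, H3.3-HA and H3 along each cluster, in kb from its 3′ end, with the KO row (dark) above the WT row (pale) of each mark and vertical lines at annotated gene starts. HoxC and HoxD are wholly under H3K27me3 in both genotypes, and in HoxB the left edge of the long H3K27me3 bar stands at 58.3 kb in KO and 37.3 kb in WT.

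H3.3-HA gave another picture. It covered 100% of HoxC in KO and 7.78% in WT, 41.4% of HoxB in KO and 2.30% in WT, 53.1% of HoxA in KO and 44.5% in WT, and 0% of HoxD in KO and 25.6% in WT. The KO cover of HoxC was part of 1 region of 738 kb. The 100 kb on each side of HoxC were covered to 100% in KO and 0% in WT. In HoxA the KO region ran over the 3′ part, from 2.63 to 58.6 kb, close to the H3.3-Flag regions, whereas in WT the main region ran from 56.6 to 97.6 kb and a short one from 2.63 to 8.63 kb. Hox starts under H3.3-HA numbered 21 in KO, beside 26.6%, and 12 in WT, beside 20.1%. The KO regions over HoxB and HoxC had signals of 0.140 and 1.25 and ranked 134 of 142 and 37 of 77 on their chromosomes, where the median of the KO list was 1.52 on the chromosome of HoxB and 1.16 on that of HoxC, and the median of all H3.3-HA regions was 1.48 in KO and 16 in WT. With regions of a signal of at least 3, or with equal genome-wide lengths of highest signal, the cover of all clusters was 11.4% in KO against 17.2% in WT, where it was 49.5% in KO and 17.2% in WT with all regions. The direction of the H3.3-HA difference therefore depended on whether KO regions of a signal below 3 were kept. Both settings compare signals between chromosomes, on which the scaling may differ.

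H3K9me3 covered more of the clusters in KO, 66.5% of their summed length against 29.6% in WT. HoxC was covered to 100% in KO and 0% in WT, and HoxD to 100% in KO and 45.3% in WT. The KO cover of HoxC was part of 1 region of 391 kb, and that of HoxD of 1 region of 200 kb. The 100 kb on each side of HoxC were likewise covered to 100% in KO and 0% in WT. In the other clusters the shares with all regions kept were near each other, with 30.2% of HoxA in KO and 26.5% in WT, and 47.5% of HoxB in KO and 42.5% in WT, and lay mostly in the 5′ parts. With a signal of at least 3 they were 30.2% and 0% in HoxA and 47.5% and 23.4% in HoxB. That minimum did not cut both lists alike, since the median signal was 8.52 in KO and 3.83 in WT. Every covered base lay within H3K27me3 of the same genotype. All 23 Hox starts under H3K9me3 in KO and all 9 in WT were also under H3K27me3, beside 75.8% of all protein-coding starts under H3K9me3 in KO and 50.7% in WT. Of all 39 Hox starts, 34 in KO and 32 in WT were under H3K27me3, whatever their H3K9me3 state. The background of starts under H3K9me3 was 23.3% in KO and 18.5% in WT. The H3K9me3 regions over HoxC and HoxD in KO had signals of 7.88 and 6.27, each below the median of its chromosome in that list (8.76 and 9.18), unlike the H3K27me3 regions. In WT the regions touching HoxD had signals of 0.674, 2.90 and 2.07, also below the median there, 4.32.

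Total H3 was called on a coarser grid of 10 kb. Its regions covered 100% of HoxC in both genotypes, 78.0% of HoxB in KO and 0% in WT, and 0% of HoxA and HoxD in both. The HoxB cover in KO was part of 1 region of 1990 kb. Hox starts under H3 numbered 17 in KO, beside 35.3%, and 9 in WT, beside 23.2%. No Hox start was under a PML region, beside 1.49% of starts in KO and 12.8% in WT. Total H3 thus covered HoxC in both genotypes, whereas H3.3-HA and H3K9me3 covered all of it in KO alone. The part of the H3 cover in that of the other marks was not tested.

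RNA and H3K27me3 of the same genotype were set side by side over the Hox genes. In WT the 7 genes with a start outside H3K27me3 had a median of 7.43 FPKM in the numbered table, and all 7 reached 1 FPKM, whereas the 32 under it had a median of 0.215 FPKM and 12 reached 1 FPKM. In KO the 5 genes outside had a median of 2.64 FPKM in the numbered table and the 34 under it a median of 2.74 FPKM. By presence, 5 of 5 outside and 19 of 34 under it reached 1 FPKM there, the same direction as in WT. The medians of the numbered KO table lay close together, and Hoxc10, Hoxb9 and Hoxa10, at 41.3, 26.7 and 20.2 FPKM, all had starts under H3K27me3. In the unnumbered tables the medians were 3.38 FPKM outside and 3.28 FPKM under H3K27me3 in KO, and 2.53 FPKM outside and 3.05 FPKM under it in WT. By presence there, 5 of 5 outside and 23 of 34 under it reached 1 FPKM in KO, and 7 of 7 and 25 of 32 in WT. Hoxd13, the highest Hox gene there, lay within H3K27me3 in both genotypes. These are descriptions across genes of shared clusters, and the ChIP and RNA cultures are not matched by the labels.

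**Figure D5:**
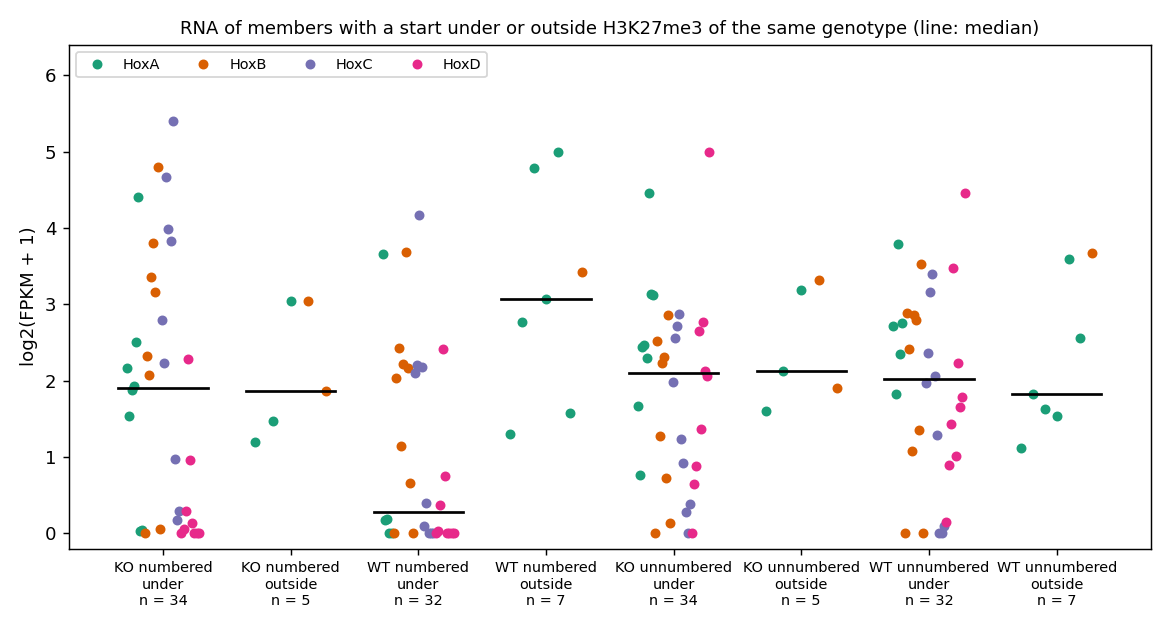
Level of Hox genes as log2(FPKM + 1) by whether the start lay under or outside H3K27me3 in the same genotype, for each table, with points coloured by cluster and a line at the median. In the numbered WT table the median of the 7 genes outside is 7.43 FPKM and that of the 32 under the mark is 0.215 FPKM, and in the other tables the 2 medians lie close together.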

How the data were processed

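ChIP region lists and RNA tables were used as deposited. Alignment was to mm10, and the submitters' processing notes name TopHat2 2.0.8b and Bowtie 1.0.0, and also Cuffdiff 2.2.1 with Cufflinks 2.2.1, whereas no region caller is given in the sources used here. The authors deposited a signal and a score per region for H3K27me3, H3K9me3 and H3.3, and a score per region for H3 and PML; the caller's scaling of both is not stated. The deposited RNA tables hold FPKM per gene, and each numbered table pools 3 samples. Lines naming several genes (267 or 271 per table) were left out, and 0 of them held a Hox gene. Read totals are not in the files, so depth and detection limits are unknown.

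Cover was computed from merged regions in pandas 2.3.3 and numpy 2.4.6 under Python 3.11.15, and matplotlib 3.10.9 drew the figures. Gene starts came from RefSeq (GRCm38.p6), from the promoter table for 22 members and from the gene's 5′ end for 17. Signal times the number of 1 kb bins was whole for all regions on the chromosomes of HoxA and HoxD and for at most 31.5% on those of HoxB and HoxC, so a signal minimum may not mean the same on both. With 1 value per genotype no test was run, and nothing says that the pooled samples came from separate animals. Fold calls and cover were tested on simulated data. The members, lists and rules were chosen with earlier results of these data known. Named were members past 2-fold in either pair, the 3 highest of each table, members whose start changed state for H3K27me3 or H3.3-Flag, and list genes past 2-fold in either pair and used in both; other members were named to account for the rest, except for a gene that is not reported here by name and not drawn by position, and Ezh2, Meox1 and the antisense RNA over Hoxa11 after their values were seen. Of the other marker lists, epithelial genes summed to at most 0.633 FPKM and endothelial genes to at most 1.49 FPKM in any table. Neuronal markers summed to 18.8 FPKM in numbered KO and 26.8 FPKM in numbered WT cells, and to 45.4 and 27.3 FPKM in unnumbered KO and WT cells, mostly Tubb3 and Map2 (Map2 at 1.49 FPKM in numbered KO and 3.68 FPKM in numbered WT cells, and at 24.9 FPKM in unnumbered KO and 8.70 FPKM in unnumbered WT cells). Of pluripotency markers only Sox2 passed 1 FPKM, at 2.97 FPKM in numbered KO and 0.0141 FPKM in numbered WT cells. Macrophage markers summed to 0.951 FPKM in numbered KO and 1.06 FPKM in numbered WT cells. Alternatives were another pseudocount, other minima, rescaling, signal minima, equal lengths, wider spans and other start windows.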

Additional observations from a re-analysis of the deposited data

Results flagged for a closer look

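Hoxb6, Hoxb9 and Hoxc9 lay on opposite sides in the 2 pairs of tables, being at least 2-fold higher in KO in the numbered pair and at least 1.5-fold lower in KO in the unnumbered pair. The difference in log2(FPKM + 1), KO minus WT, was 1.14 in the numbered and -0.63 in the unnumbered tables for Hoxb6. For Hoxb9 it was 4.14 in the numbered and -0.66 in the unnumbered tables, and for Hoxc9 3.72 in the numbered and -0.83 in the unnumbered tables. The difference between the pairs was not tested, since each pair holds 1 value per genotype.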

How the results depend on the processing

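No paired analysis was possible because the numbered samples are deposited as 1 pooled value per genotype, and for the same reason no sample could be left out. Of the summary values under an alternative, 73 stayed within the limits set, 14 moved and 2 reversed. In the numbered pair, rescaling each table to the same sum gave 15 higher and 1 lower members in place of 7 and 5 and moved the median of all genes to 1.16. Of all genes used, 57.8% were then higher and 5.52% lower. In the unnumbered pair a pseudocount of 0.1 gave 3 members past 2-fold, all 3 lower in KO (Hoxa4, Hoxb8 and Hoxc9), in place of 0. Rescaling with centring, chosen after seeing the data, gave 2, both lower (Hoxa4 and Hoxc9). Beside these, 6.06% and 5.17% of all genes used were lower at the same settings. At 5 FPKM, 12 members had RNA in numbered KO, 8 in numbered WT, 11 in unnumbered KO and 13 in unnumbered WT cells. The H3K9me3 difference in cover, KO minus WT, was 36.9 percentage points, and 58.2 with a signal of at least 3, where 1 Hox start in place of 9 was under it in WT. That minimum left the KO cover at 66.5% and took the WT cover from 29.6% to 8.27%. The median signal of all H3K9me3 regions was 8.52 in KO and 3.83 in WT, so the minimum did not cut both lists alike. The H3.3-HA difference was 32.3 points, 17.7 with a signal of at least 1, and -5.85 both with a signal of at least 3 and at equal genome-wide length, and the cause was not tested; 6 starts in place of 21 were then under it in KO with a signal of at least 3. Unknown depth limits every level near 0, and 1 library per mark limits every border.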
